A study of Arabidopsis thaliana with 18 samples.

Results

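The mitochondrial genome of Arabidopsis thaliana was followed here through the genes of the deposited count table whose identifier starts with ATMG. There were 152 of them among 32833 genes, and they were taken by identifier alone, with no measured value used. In the 9 leaf disc libraries 68 of the 152 passed the filter on low counts and were tested one by one, and in the 9 leaf libraries 22 passed. The others, 84 in discs and 130 in leaves, were summed to 1 value per library, and 33 and 61 of them were at 0 counts in every disc or leaf library.

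RNA was sequenced from 18 libraries of ecotype Col-0, 3 in each of 6 groups, as 2 experiments that were analysed apart. In the first, discs were cut from mature rosette leaves of 4-week-old plants and kept overnight in diluted Murashige and Skoog medium with 1% mannitol (the osmotic control), 1% glucose or 1% fructose. In the second, untreated leaves of 4-week-old plants were taken from the wild type and from the lines ERDL4-overexpressor 1 and ERDL4-overexpressor 2, called overexpressor 1 and 2 below, which carry more transcript of a sugar transporter of the vacuolar membrane. All plants were soil-grown at 21 °C in a day of 10 h light with 14 h dark. The sources used here do not give the promoter that drives the transgene. The labels call the libraries biological replicates without saying that they came from separate plants, so the p-values measure the spread between these libraries, which may be technical.

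Plant mitochondria keep a small genome that encodes a few subunits of the respiratory complexes and of ATP synthase, proteins of cytochrome c maturation, some ribosomal proteins, and the ribosomal and part of the transfer RNAs. The remaining subunits of the same complexes are encoded in the nucleus and imported, so each complex is built from the products of both genomes. Transcription in the organelle is carried out by phage-type RNA polymerases made in the nucleus, and nuclear RNA-binding proteins and ribonucleases splice, trim and degrade its RNAs.

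A large stretch of the mitochondrial genome is also present in nuclear chromosome 2, and this sets what a mitochondrial count can mean. In TAIR10.1, the reference used here for location and names, 73.4% of the 367808 bases of the mitochondrial genome had a nuclear match of at least 95% identity over at least 100 bases, and 73.2% had it on chromosome 2. The matches there of at least 1000 bases lay between bases 3239038 and 3509765, and the longest ran over 50638 bases with 99.9% identity. Of 100 nuclear genes covered by such matches over at least 90% of their length, 99 lie on chromosome 2, and these were aligned. The alignment, 1 stretch per gene, covered the whole length of 96 of these, but only 59.3% of AT2G07777, the copy of ATMG01090. Differences were counted within that stretch only, and 54 of the genes had 0 differences from the mitochondrial sequence. The most differences in any of them were 4, and the lowest identity was 99.72%.

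The gene AT2G07698, which the reference describes as the partner of ATMG01190 (subunit 1 of ATP synthase), shows how little separates such a pair. It lies at chr2:3361463-3364127 on the plus strand and differs from the mitochondrial genome of TAIR10.1 at 1 of its 2665 bases. The stretch of its first coding exon around that base is printed to show this, at chr2:3361828-3362028 of TAIR10.1, plus strand, 5′ to 3′. The capital marks the base that differs.
AT2G07698: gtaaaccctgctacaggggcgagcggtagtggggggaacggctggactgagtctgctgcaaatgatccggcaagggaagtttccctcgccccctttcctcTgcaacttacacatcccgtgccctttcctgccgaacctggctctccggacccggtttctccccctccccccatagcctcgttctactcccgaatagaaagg
Elsewhere in this stretch the nuclear and mitochondrial sequences are the same. Only genomic sequence was compared, and the RNA reads themselves were not examined here. The sources used here do not say how the authors' counting treated reads with several matches, and the mitochondrial sequence of their build was not used here. Counts of a member and of its nuclear copy therefore cannot be told apart by origin, and both are given below where they bear on a result.

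The reference does not carry ATMG identifiers on its mitochondrial sequence, so names came from its notes on nuclear genes that cite a mitochondrial partner. Such a note exists for 53 members, and it describes the product of 24. The other members are given by identifier only, except where a list of roles drawn up for the analysis is cited.

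Glucose discs held most of the mitochondrial counts in the first experiment. The 152 members took 0.0106%, 0.0104% and 0.0148% of all counts in the mannitol libraries, 0.0549%, 0.0480% and 0.0560% in glucose, and 0.0160%, 0.0221% and 0.0136% in fructose. The glucose libraries stood above all others without overlap, whereas fructose replicate 3 fell below mannitol replicate 3. The group means were 0.0119% ± 0.00248 (SD, n = 3) in mannitol, 0.0530% ± 0.00431 in glucose and 0.0173% ± 0.0044 in fructose, which put glucose 4.45 times above mannitol. These are shares of counts, and a sum over the members was given no test. Library construction is described as directional, but how RNA was selected is not given in the sources used here, so a share of counts is not a share of cellular RNA. In bulk tissue, more cells of a type and more RNA per cell cannot be told apart.

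**Figure D1:**
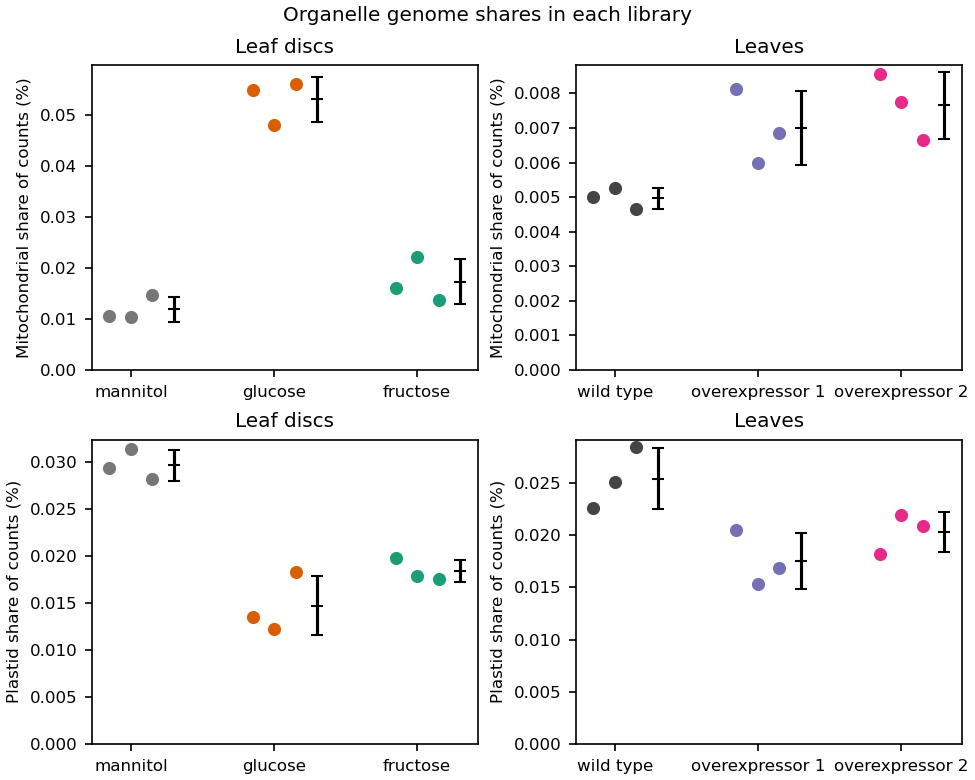
Share of all counts (%, y axis) taken by the mitochondrial (top) and plastid genes (bottom) in each library of the disc (left) and leaf (right) experiments. Points are libraries, and the bar beside them is the mean with its SD over 3 libraries. Mitochondrial shares of the glucose discs (0.0480% to 0.0560%) lie above all other discs, while their plastid shares lie below those of mannitol.

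The plastid genome, whose 133 genes were counted in the same libraries, went the other way. Mannitol libraries gave it 0.0282% to 0.0314% of counts, fructose libraries 0.0176% to 0.0198% and glucose libraries 0.0123% to 0.0183%. Counts of mitochondrial genes per 100 plastid counts were thus 33.1 to 52.3 in mannitol, 77.5 to 124 in fructose and 306.5 to 404.6 in glucose, with no overlap between the 3 groups. Nuclear genes for ribosomal, small nuclear and small nucleolar RNAs took 0.0439% to 0.0530% with mannitol, 0.0320% to 0.0448% with fructose and 0.0353% to 0.0539% with glucose, so these groups overlapped.

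The number of members with at least 1 count was 71 to 82 in the mannitol libraries, 89 to 93 in fructose and 102 to 106 in glucose. The 2 genes with the most counts, ATMG01390 and ATMG00020, together held 40.48% to 45.55% of the mitochondrial counts in mannitol. They held 35.55% to 41.86% in fructose and 30.45% to 32.22% in glucose. The list of roles places both, with ATMG01380, among the ribosomal RNAs, which the reference notes do not state. ATMG01390 alone held 24.2% to 27.9% of the mitochondrial counts in mannitol, 26.5% to 30.2% in fructose and 23.7% to 25.5% with glucose. The mannitol range overlapped both others. ATMG00020 held 16.3% to 17.6% in mannitol, 9.02% to 11.7% in fructose and 6.68% to 6.78% in glucose, 3 ranges without overlap. The 84 summed genes with few counts made up 15, 15 and 41 counts in mannitol, 156, 136 and 230 in glucose and 68, 60 and 59 in fructose. This is 0.717% to 2.14% of the mitochondrial counts, so the totals rest on the tested genes.

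**Figure D2:**
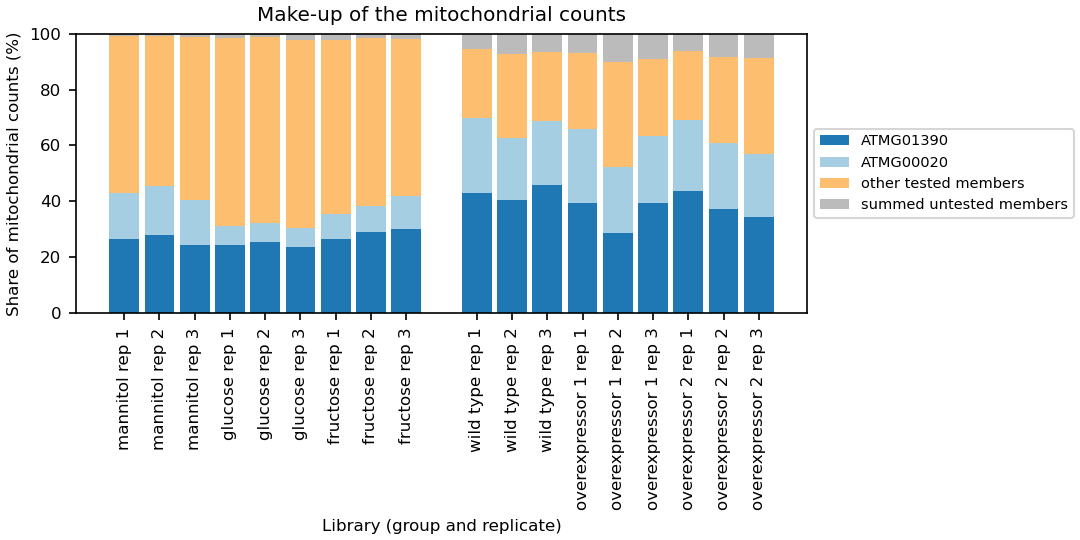
Make-up of the mitochondrial counts (%, y axis) in each of the 18 libraries (x axis), as stacked bars for ATMG01390, ATMG00020, the other tested members and the sum of the untested members. The ATMG00020 segment is shortest in glucose, at 6.68% to 6.78%, and in leaves the first 2 segments together take 52.3% to 69.7%.

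Of the 68 members tested in discs, 65 rose in glucose against mannitol and none fell, by edgeR's quasi-likelihood test with Benjamini-Hochberg adjustment over all genes tested (adjusted p under 0.05). Among all 18784 genes tested, 38.5% rose and 35.5% fell in this comparison. The median log2 fold change was 2.55 over the members and 0.03 over all genes. The filter has a part in this count. Only 26 of the 68 members reached it in all 3 mannitol libraries. Its limit was 0.505 CPM, a count scaled to library size, here without TMM and elsewhere with it. Another 30 reached it in all 3 libraries of glucose alone. The filter thus favoured a rise in these 30, though it did not fix one. Of the 26, 24 rose, with a median log2 fold change of 2.00. Counting every one of the 152 members by its mean level, glucose was higher in 114 and lower in 2, and 36 were at 0 in both groups.

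**Figure D3:**
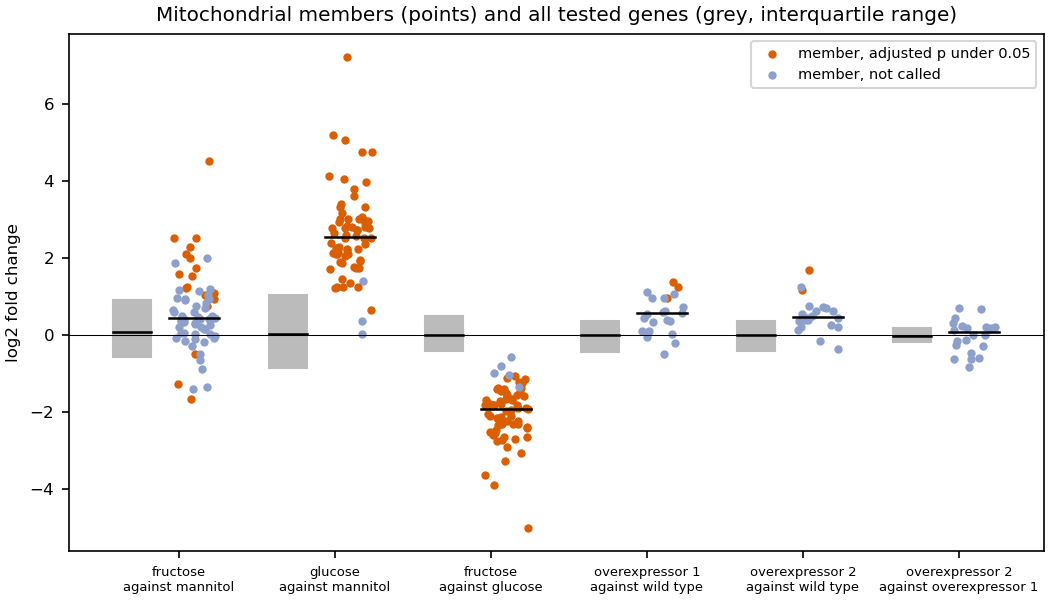
Log2 fold change (y axis) of each tested member in the 6 comparisons (x axis), coloured by whether its adjusted p was under 0.05, with the interquartile range of all tested genes as a grey box. Black lines are medians: the members' median is 2.55 in glucose against mannitol and -1.92 in fructose against glucose, against 0.03 and 0.01 over all genes.

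The 2 genes with the most counts changed by unequal amounts. ATMG01390 stood at 31.9, 32.8 and 38.2 CPM in mannitol and at 133.5, 117.8 and 124.4 CPM in glucose. The groups were far apart, and the log2 fold change was 1.87 ± 0.17, where ± is |log2 fold change|/√F, a rough standard error taken from the test's F statistic (adjusted p = 3.33e-06, edgeR). ATMG00020 stood at 19.5, 20.7 and 25.7 CPM in mannitol and 36.7, 31.1 and 35.6 CPM in glucose. It rose as well, but by a log2 fold change of only 0.65 ± 0.15 (adjusted p = 0.00251, edgeR).

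Complex I, the NADH dehydrogenase that feeds electrons into the chain, has 3 members that the reference describes. ATMG00990 (NADH dehydrogenase 3) had 5, 3 and 8 counts in mannitol and 46, 41 and 34 in glucose, a log2 fold change of 2.78 ± 0.45. ATMG01275 (NADH dehydrogenase 1A) had 1, 2 and 2 counts in mannitol and 41, 23 and 32 in glucose, a log2 fold change of 4.06 ± 0.57. Both were called higher, with glucose libraries well clear of mannitol. ATMG01320 (NADH dehydrogenase 2B) was too low to be tested, with 0, 0 and 3 counts in mannitol and 1, 1 and 9 in glucose.

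Complexes III and IV pass electrons to cytochrome c and on to oxygen. The members that the reference describes as apocytochrome b and as subunit 3 of cytochrome c oxidase were hardly counted. The list of roles places ATMG00160 and ATMG01360 in complex IV too, which the reference notes do not state. In mannitol they stood at 2.92 ± 0.556 and 5.47 ± 0.537 CPM. Both rose in glucose, to 22.4 ± 2.94 and 23.9 ± 2.34 CPM. Other members given by identifier only may also belong to these complexes. ATMG00220, apocytochrome b of complex III, had 2 counts in all 18 libraries together, 1 in a glucose and 1 in a fructose library. ATMG00730, subunit 3 of cytochrome c oxidase, had 0, 0 and 1 counts in mannitol and 6, 3 and 6 in glucose, and was not tested. Their chromosome 2 copies held more: AT2G07727, the copy of ATMG00220, had 3, 4 and 1 counts in mannitol and 35, 27 and 43 in glucose. AT2G07687, the copy of ATMG00730, had 2 counts in each mannitol library and 43, 44 and 42 in glucose. In both copies the glucose libraries lay well above mannitol, whereas ATMG00220 had too few counts to tell the groups apart. ATMG01280, described as like subunit II of cytochrome c oxidase in its transmembrane domain, rose from 0.526 ± 0.367 to 4.45 ± 0.641 CPM (SD, n = 3), a log2 fold change of 3.01 ± 0.42.

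ATP synthase makes ATP from the proton gradient of the inner membrane. ATMG01190, its subunit 1, had 0, 0 and 5 counts in mannitol and 23, 20 and 26 in glucose (log2 fold change 3.61 ± 0.75). ATMG00480, subunit 8 of the membrane part, had 0, 1 and 7 counts in mannitol and 26, 16 and 47 in glucose (3.34 ± 0.75). Both were called higher and neither overlapped, though mannitol replicate 3 held nearly all of the mannitol counts of each. ATMG01080, subunit 9 of the membrane part, had 12, 1 and 8 counts in mannitol and 22, 16 and 23 in glucose, and missed the threshold (log2 fold change 1.40 ± 0.64, adjusted p = 0.0681, edgeR). ATMG01090, which the reference also describes as ATP synthase 9, rose from 4.86 ± 0.531 to 16.2 ± 1.495 CPM (1.74 ± 0.26). ATMG00410 (subunit 6-1) had 0 counts in every library.

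Proteins of cytochrome c maturation attach heme to cytochrome c. ATMG00180 (cytochrome C biogenesis 452) had 8, 5 and 32 counts in mannitol and 152, 120 and 128 in glucose, a log2 fold change of 3.08 ± 0.44. ATMG00960, described as a cytochrome C assembly protein, had 3 counts over the mannitol libraries and 98 over glucose, which is a ratio of 29.9 with a 95% counting interval of 9.94 to 148. Both were called higher. ATMG00900 (cytochrome C biogenesis 256) had 0 counts throughout.

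Ribosomal proteins of the organelle build the ribosome that translates its messages. ATMG00980, of the S12/S23 family, had 3, 7 and 11 counts in mannitol and 72, 52 and 60 in glucose (log2 fold change 3.01 ± 0.37). ATMG00290, protein S4, had 2, 1 and 5 counts in mannitol and 18, 14 and 15 in glucose (2.40 ± 0.62). Both rose. ATMG01270 (protein S7) had 1 count over mannitol and 2 over glucose, and was not tested. ATMG00560, described as a nucleic acid-binding protein with an OB fold, rose from 1.22 ± 0.169 to 7.39 ± 1.76 CPM (2.59 ± 0.27).

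Some of the largest changes came from members that are near absent from mannitol discs. ATMG00630 had 5, 2 and 5 counts in mannitol and 189, 166 and 134 in glucose, a log2 fold change of 5.19 ± 0.43 (adjusted p = 1.78e-06, edgeR). ATMG00620 had 0 counts in mannitol and 55 over the glucose libraries, at least 16.8-fold higher when a floor of 3 counts over the group is used. ATMG01110, described as an RNA-dependent RNA polymerase of a mitovirus, had 2 counts over mannitol and 85 over glucose, a ratio of 38.9 (10.45 to 326.7). ATMG01050 had 2 and 69, a ratio of 31.6 (8.42 to 266). These intervals cover counting error only.

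**Figure D4:**
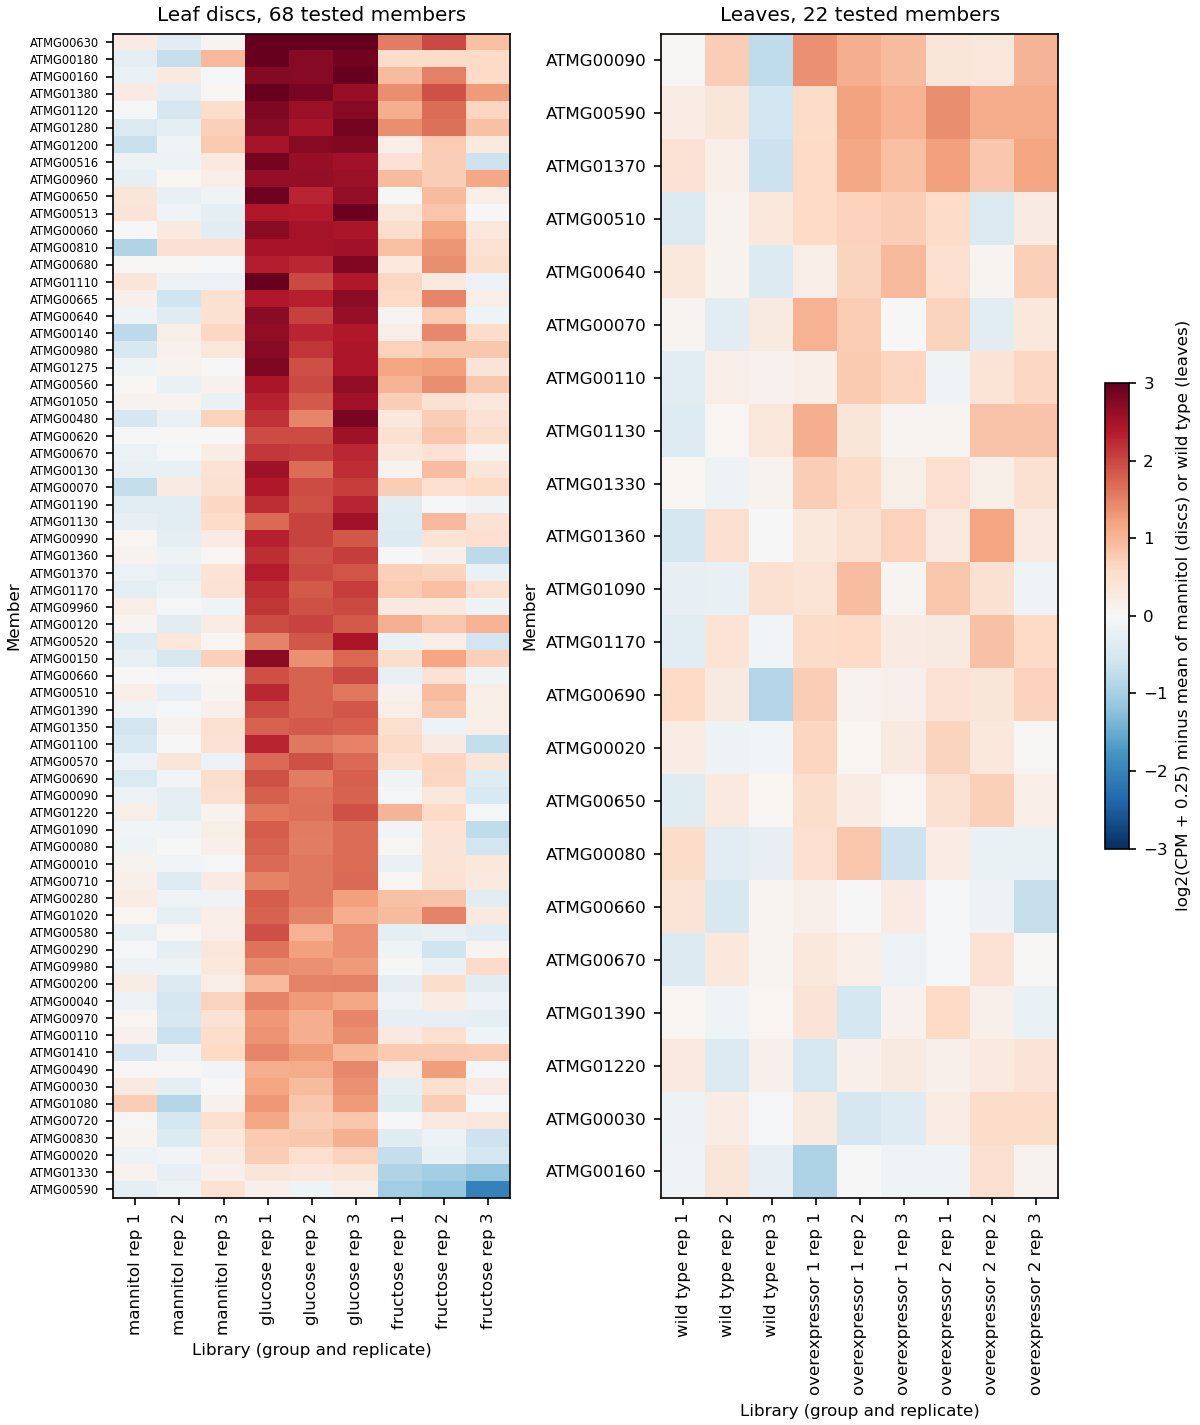
Log2(CPM + 0.25) of the tested members (rows) in each disc (left, 68 rows) or leaf library (right, 22 rows), minus the mean of mannitol or wild type. Red is higher and blue lower. The 3 glucose columns are red in nearly all rows, and ATMG00590, ATMG01330 and ATMG00020 at the foot of the disc panel are blue in fructose.

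Besides ATMG01080, 2 tested members did not pass in glucose. ATMG00590, described as a cytochrome b/b6 protein, stood at 2.01, 2.17 and 3.39 CPM in mannitol and at 2.77, 2.22 and 2.80 CPM in glucose. The groups overlapped, with a log2 fold change of 0.03 ± 0.34. ATMG01330 stood at 2.01, 1.54 and 2.08 CPM in mannitol and 2.46, 2.40 and 2.47 CPM in glucose (0.38 ± 0.23, adjusted p = 0.166, edgeR).

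Fructose moved fewer members. Against mannitol 16 of the 68 rose and 3 fell, while among all genes tested 36.6% rose and 29.5% fell, so the members' share of rises was below that of all genes. Their median log2 fold change was 0.45, and 0.09 over all genes. Among the 26 that reached the filter in every mannitol library, 5 rose and 3 fell. Over all 152 the fructose mean was higher in 87 and lower in 19, and 46 were at 0 in both. Leaving out mannitol replicate 1 lowered the calls from 19 to 12.

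The rises in fructose included ATMG00630, with 23, 32 and 16 counts against 5, 2 and 5 (log2 fold change 2.30 ± 0.48). ATMG00960 had 23 counts over fructose against 3 over mannitol, a ratio of 6.35 (1.92 to 33.0). ATMG01275 (NADH dehydrogenase 1A) had 11, 11 and 5 counts against 1, 2 and 2 (2.12 ± 0.66), a call lost without mannitol replicate 1. In each the fructose libraries lay above mannitol and below glucose. ATMG00560 reached 2.69, 3.59 and 2.32 CPM against 1.26, 1.03 and 1.36 (1.22 ± 0.27, adjusted p = 0.00257, edgeR). ATMG01020 had 22 counts against 3 (ratio 6.07, 1.82 to 31.7), called higher but not without mannitol replicate 1 or 2 or fructose replicate 1 or 2. ATMG00620 had 9 against 0, at least 2.48-fold higher. ATMG01390 was called as well, at 39.1, 59.8 and 38.95 CPM against 31.9, 32.8 and 38.2. Its difference was small (log2 fold change 0.42 ± 0.16, adjusted p = 0.0424, edgeR), and it was not called without fructose replicate 2, mannitol replicate 1 or 2 or glucose replicate 1 or 3.

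Against mannitol 3 members fell in fructose. ATMG00590 was at 1.07, 0.971 and 0.412 CPM, all below the lowest mannitol library, a fall of 1.65 ± 0.37 on the log2 scale (adjusted p = 0.00267, edgeR). ATMG01330 was at 0.880, 0.776 and 0.674 CPM, and fell by 1.28 ± 0.25 (adjusted p = 0.00122, edgeR). ATMG00020 was at 13.3, 18.7 and 15.04 CPM and fell by 0.49 ± 0.15 (adjusted p = 0.0152, edgeR). This last call was lost without mannitol replicate 3 or fructose replicate 1, and with library size as the only scaling.

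The direct comparison of the sugars separated them for most members. Fructose was lower than glucose in 63 of 68 and higher in none, where 24.6% of all genes tested were lower and 24.7% higher, and the members' median log2 fold change was -1.92. All of the 26 members that reached the filter in every mannitol library were among the 63. ATMG01190 (ATP synthase subunit 1) had 2 counts over fructose against 69 over glucose, a 38.2-fold difference (10.2 to 321.6). ATMG00970 had 3 against 38, a 14.0-fold difference (4.45 to 71.0). ATMG09960 had 3, 3 and 1 counts against 23, 21 and 21 and was lower by a log2 fold change of -3.28 ± 0.48. The fructose libraries of these 3 genes overlapped those of mannitol. The 5 that were not called were ATMG01080, ATMG01020, ATMG00490, ATMG00720 and ATMG01410, with log2 fold changes from -0.56 to -1.35. Glucose and fructose were each set against the same mannitol libraries above, so those 2 comparisons are not independent of each other.

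In leaves the mitochondrial share was 0.00499%, 0.00526% and 0.00465% in the wild type, 0.00813%, 0.00599% and 0.00686% in overexpressor 1, and 0.00856%, 0.00775% and 0.00664% in overexpressor 2. The libraries of both lines lay above the wild type in these raw shares. The means of the lines were 1.41 and 1.54 times the wild-type mean. With TMM scaling the gap was narrower: the summed members stood at 57.9, 53.8 and 54.5 CPM in the wild type, 78.9, 57.6 and 66.4 CPM in overexpressor 1, and 83.1, 70.4 and 60.3 CPM in overexpressor 2. Replicate 2 of overexpressor 1 then fell within the wild-type range. The plastid share was lower in both lines, at 0.0153% to 0.0205% and 0.0182% to 0.0219%, against 0.0226% to 0.0285% in the wild type. The libraries carried 1022 to 2009 mitochondrial counts each, against 2055 to 10869 in discs, so single genes were measured less precisely.

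ATMG01390 and ATMG00020 together made up 62.7% to 69.7% of the mitochondrial counts in the wild type and 52.3% to 69.2% in the lines, and neither was called in either line. ATMG01390 stood at 24.9, 21.8 and 24.9 CPM in the wild type, 31.1, 16.4 and 26.2 CPM in overexpressor 1 and 36.4, 26.3 and 20.8 CPM in overexpressor 2. The line libraries lay on both sides of the wild type. ATMG00020 stood at 15.4, 11.95 and 12.6 CPM in the wild type, 21.0, 13.7 and 15.9 CPM in overexpressor 1 and 21.2, 16.6 and 13.5 CPM in overexpressor 2, and the ranges overlapped. The 130 summed genes held 61, 74 and 72 counts in the wild type, 138, 156 and 144 in overexpressor 1 and 94, 115 and 99 in overexpressor 2. In these few-count genes all line libraries lay above the wild type, also after scaling (3.13 to 3.90 CPM against 5.14 to 5.99 CPM).

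Overexpressor 1 had 3 of 22 tested members higher than the wild type and none lower, where 21.5% of all genes tested were higher and 22.3% lower. Overexpressor 2 had 2 higher and none lower, with 20.6% and 21.5% over all genes. The members' medians of log2 fold change were 0.56 and 0.47, and 0.01 and 0.02 over all genes. Only 9 of the 22 reached the filter (0.442 CPM, without TMM) in every wild-type library, and 1 of the 9 was called in each line. Over all 152 members the mean was higher in 62 and lower in 23 for overexpressor 1, and higher in 61 and lower in 22 for overexpressor 2. The lines share their wild-type libraries.

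ATMG01370 had 1.54, 1.26 and 0.592 CPM in the wild type, 1.73, 2.68 and 2.21 CPM in overexpressor 1 and 2.86, 2.07 and 2.75 CPM in overexpressor 2. The line libraries were all above the wild type, with log2 fold changes of 0.96 ± 0.34 and 1.18 ± 0.34 (adjusted p = 0.0417 and 0.0197, edgeR). ATMG00590, the cytochrome b/b6 protein, had 7, 8 and 2 counts in the wild type, 13, 26 and 20 in overexpressor 1 and 20, 17 and 17 in overexpressor 2. It too did not overlap, with log2 fold changes of 1.38 ± 0.48 and 1.70 ± 0.48 (adjusted p = 0.0382 and 0.0168, edgeR). ATMG00090 had 12, 22 and 5 counts in the wild type, 49, 42 and 33 in overexpressor 1 and 15, 16 and 28 in overexpressor 2. It was called in overexpressor 1 (1.26 ± 0.46, adjusted p = 0.0481, edgeR) and not in overexpressor 2 (0.64 ± 0.48, adjusted p = 0.314, edgeR), and the lines themselves did not differ past the threshold (adjusted p = 0.549).

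These leaf calls depended on single libraries and on how replicates were counted. Replicates 2 and 3 of each line were nearly alike (chi-square per degree of freedom 2.07 in overexpressor 1 and 1.70 in overexpressor 2), and with them merged 0 members were called in either line. No member was called in overexpressor 1 without wild-type replicate 3, without its own replicate 2 or without its own replicate 3, and 1 was called without replicate 2 or 3 of overexpressor 2. In overexpressor 2 the 2 calls became 4 without wild-type replicate 2 and 1 without its own replicate 3. Between the lines 0 of the 22 members were called by edgeR, and 0 of the 11 to which DESeq2 gave an adjusted p. By edgeR 0.0321% of all genes were higher and 0.0214% lower in overexpressor 2. At an unadjusted p under 0.05 edgeR had 1 member, ATMG00030, at 2.67, 1.47 and 1.62 CPM in overexpressor 1 and 2.58, 3.32 and 3.32 CPM in overexpressor 2.

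The other members with a described product had few counts in leaves. ATMG01090 (ATP synthase 9) had 10, 10 and 20 counts in the wild type, 24, 40 and 17 in overexpressor 1 and 24, 19 and 11 in overexpressor 2, and was not called. ATMG00180, ATMG00560, ATMG00980, ATMG01080 and ATMG01280 had at most 14 counts in any leaf library. ATMG01190, ATMG00990, ATMG00960, ATMG00480, ATMG00290, ATMG01275 and ATMG00280 had at most 5.

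In discs the nuclear copies had the same order of groups as the members. The 100 nuclear genes matched over at least 90% of their length took 0.00214% to 0.00341% of counts in mannitol, 0.00387% to 0.00660% in fructose and 0.0172% to 0.0195% with glucose. These ranges did not overlap. Of 43 such genes tested in discs, 42 were higher in glucose than in mannitol (38.5% of all genes tested), 41 lower in fructose than in glucose (24.6%), and 15 higher with 1 lower when fructose was set against mannitol (36.6% and 29.5%). In wild-type leaves they took 0.000619% to 0.00105%, in leaves of overexpressor 1 0.00115% to 0.00123% and of overexpressor 2 0.00121% to 0.00146%, and 1 of 9 tested was called higher in each line, no larger a share than the 21.5% and 20.6% of all genes. Whether these counts came from the nuclear or the mitochondrial sequence was not tested.

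**Figure D5:**
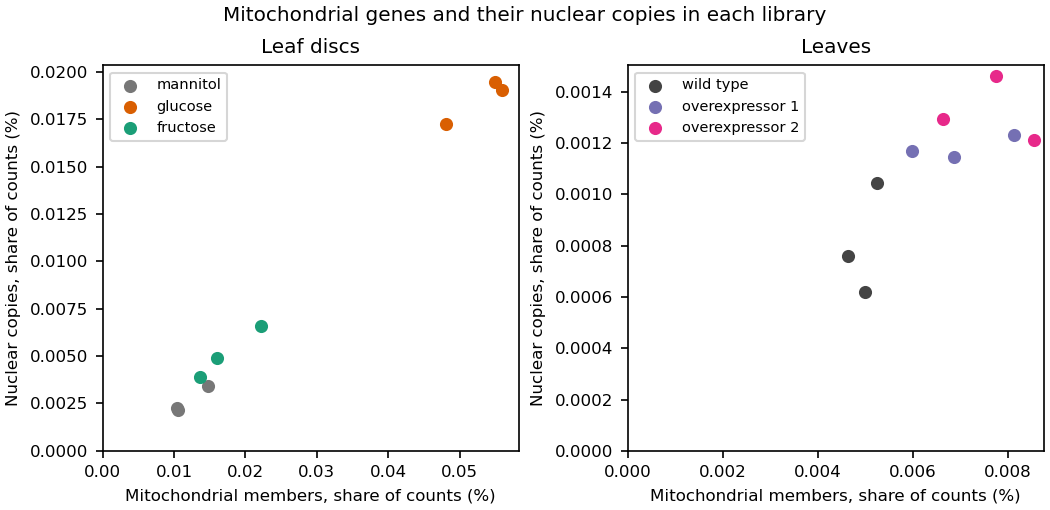
Share of all counts taken by the 100 nuclear copies (%, y axis) against that of the 152 mitochondrial members (%, x axis) in discs (left) and leaves (right). Each point is a library, coloured by group. In discs the glucose libraries lie apart at the upper right, at 0.0172% to 0.0195% for the copies.

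Within pairs the counts could fall almost wholly on one partner. Of 46 pairs named by the reference and present in the table, the nuclear gene held more counts in 26 and the mitochondrial gene in 20. ATMG01190 had 80 counts over the 18 libraries and its copy AT2G07698, printed above, had 2477. AT2G07698 itself was at 3.45 ± 1.21 CPM in mannitol, 30.9 ± 6.54 in glucose and 3.45 ± 0.938 in fructose, and it was called higher in glucose, with a log2 fold change of 3.15 ± 0.28. ATMG00370, described as a Ycf1 protein, had 0 counts and its copy AT2G07739 had 684. In the other direction ATMG01090 had 1769 counts and its copy 29, and ATMG00180 had 563 and its copy 1. Among members with a partner, 19 had at most 10 counts over all 18 libraries.

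Nuclear genes for the same machinery were counted from lists of known subunits and factors. Of 51 nuclear genes for respiratory chain and ATP synthase subunits, all tested, 42 were higher and 2 lower in glucose than in mannitol (median log2 fold change 0.83), with 38.5% and 35.5% over all genes. Set against mannitol, fructose had 45 higher and 1 lower (median 0.76), with 36.6% and 29.5% of all genes. Between fructose and glucose 7 were higher and 10 lower, against 24.7% and 24.6%. CYTC-1, a cytochrome c, had 100.1 ± 5.03 CPM in mannitol, and rose both in glucose (353.3 ± 22.8) and in fructose (265.1 ± 19.3). In leaves 2 were higher and 29 lower in overexpressor 1 (21.5% and 22.3% of all genes), and 4 higher and 23 lower in overexpressor 2 (20.6% and 21.5%). AT5G47030, the delta subunit of ATP synthase, was at 187.4 ± 19.0 CPM in the wild type, 118.7 ± 7.24 in overexpressor 1 and 118.4 ± 8.36 in overexpressor 2.

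Of 18 nuclear genes for synthesis, splicing and decay of mitochondrial RNA, 15 were higher and 1 lower in glucose than in mannitol (median log2 fold change 1.91), and 11 higher and 1 lower in fructose (1.48), against 38.5% and 36.6% of all genes higher. AT1G68990, a phage-type RNA polymerase of mitochondria, stood at 18.8 ± 2.72 CPM in mannitol, 138.1 ± 13.3 in glucose and 79.8 ± 13.3 in fructose. AT5G14580, a polynucleotide phosphorylase that degrades mitochondrial RNA, stood at 3.82 ± 0.456, 90.4 ± 12.2 and 55.4 ± 7.90 CPM in the same order. Both were lower in fructose than in glucose (log2 fold change -0.79 ± 0.14 and -0.71 ± 0.13), as were 11 of the 18 and 24.6% of all genes. In leaves 7 and 8 of the 18 were higher in overexpressor 1 and 2, against 21.5% and 20.6% of all genes, and none was lower. AT1G68990 was among them, at 20.8 ± 1.95 CPM in the wild type, 32.9 ± 3.39 and 37.1 ± 6.04. Between the lines 0 genes of either list were called. The part of these genes in the mitochondrial counts was not tested.

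Library totals ran from 17318810 to 26157641 counts. ERDL4 went with the labels: 111 to 152 CPM in wild-type leaves, and 350.2 to 359.3 CPM and 568.4 to 604.5 CPM in leaves of the lines. Several markers of cell types moved with the groups. Of the leaf mesophyll markers, RBCS1A ran from 2639 to 5036 CPM in mannitol discs, 597 to 1372 with fructose and 68.3 to 274 with glucose. LHCB1.1 (6428 to 10990, 1844 to 2963 and 66.6 to 453 CPM) and CA1 (103 to 278, 6.26 to 30.8 and 5.17 to 7.16 CPM) also had their highest values in mannitol, so all 3 moved against the mitochondrial share. The guard cell marker KAT1 was higher with sugar, at 17.9 to 23.2 CPM in mannitol, 79.0 to 84.1 with fructose and 44.9 to 73.7 with glucose. The phloem companion cell marker SUC2 was lower, at 100.3 to 142.7 CPM in mannitol, 40.9 to 74.6 with fructose and 41.6 to 44.1 with glucose.

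In leaves the mesophyll markers were lower in both lines than in the wild type, without overlap: RBCS1A ran from 13410 to 22430 CPM in the wild type, 4311 to 6808 for overexpressor 1 and 4740 to 6242 for overexpressor 2. KAT1 was at 19.2 to 23.7 CPM in the wild type, 32.7 to 39.9 for overexpressor 1 and 18.7 to 24.7 for overexpressor 2. SUC2 was at 243 to 280 CPM in the wild type, 366 to 385 for overexpressor 1 and 266 to 302 for overexpressor 2. Both were thus above the wild type without overlap in overexpressor 1 alone. Of the root markers, PYK10 had 0, 1 and 0 counts in the wild type, 38, 29 and 19 in overexpressor 1 and 28, 30 and 33 in overexpressor 2, and so stood higher in both lines, like the leaf mitochondrial share, while TIP2;3 had at most 1 count in any library. The seed markers CRA1 and CRU3 were at 0 counts in all libraries, and the flower markers AP3 and PI had at most 7. The part of these cell types in the mitochondrial counts was not tested.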

How the data were processed

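Whole-number read counts per gene for 18 libraries were used as deposited. Per the submitters' processing notes, the authors cleaned reads with fastp, aligned them to TAIR10 with HISAT2 2.0.5 and processed them with StringTie 1.3.3. Which program counted the reads, with which strand setting and rule for several matches, is not given in the sources used here. Each experiment (9 libraries, 3 groups) was fitted apart on the whole table with edgeR 4.0.16 in R 4.3.3: filterByExpr with a minimum count of 10, TMM scaling, the robust quasi-likelihood test with no replicate block, and Benjamini-Hochberg adjustment over all genes tested. Residual degrees of freedom were 6. CPM is TMM-scaled except in the filters, and ± is the SD of 3 libraries except after log2 fold changes. Groups at 0 counts were given a floor of 3 counts (summed over their libraries), and groups of 1 to 3 counts a ratio with its exact 95% counting interval. Matches to the nuclear genome were found with BLAST 2.17.0, and the 90% limit on gene length was chosen after the matches were seen. Members named are the 4 with most counts per described role, and per comparison the 5 called members with the largest rise and fall and those going against their role. Others named were chosen after their values were seen. Nuclear genes most like the members' sum by correlation are not given, since the libraries fall into separate clusters. The members and lists were chosen with earlier results of these data known. The code was checked on simulated data. Alternatives were RLE scaling, library size only, TMM on nuclear genes, leaving out the 100 most abundant genes, DESeq2 1.42.0, other filters and thresholds, a replicate block, 2 groups alone, merged near-identical replicates, only members with no nuclear partner, and leaving out each library. Replicate pairs were compared by chi-square per degree of freedom, and every library was kept. Replicates 2 and 3 gave 2.07 in overexpressor 1 and 1.70 in overexpressor 2, and mannitol replicates 1 and 2 gave 4.59. These were the pairs merged in the alternative. All other pairs gave 13.8 to 66.1. Figures were drawn with matplotlib 3.10.9.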

Additional observations from a re-analysis of the deposited data

How the results depend on the processing

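Among members named by the fixed rule given above, no log2 fold change called in the main or the alternative run reversed. Changes of sign in values called in neither run were not counted. Of 2027 values 1919 stayed called or uncalled, 97 lost their call and 11 gained one. The counts of called members in glucose against mannitol (65) and in fructose against glucose (63) stayed within 1.5 times, from 63 to 70 and from 60 to 67 when each library was left out. The 19 calls in fructose against mannitol became 11 in a fit of the 2 groups alone, 9 at an adjusted p under 0.01 and 11 among members with no nuclear partner, and 12 to 22 with a library left out. With mannitol replicates 1 and 2 merged, 14 of 73 tested members were called in fructose against mannitol. In glucose against mannitol 68 of the 73 were then called, and in fructose against glucose 64. The 3 calls in overexpressor 1 became 5 with library size as the only scaling, 0 in the 2 groups alone, 0 with near-identical replicates merged, 0 at an adjusted p under 0.01 and 0 to 3 with a library left out. The 2 calls in overexpressor 2 became 5 with library size only, 1 with a filter of at least 1 CPM, 0 with merged replicates, 0 at an adjusted p under 0.01, 1 among members with no nuclear partner and 1 to 4 with a library left out. The causes were not tested, beyond the fewer members or stricter limit that some settings bring. The mean share of counts without the 100 most abundant genes was 0.01553% in mannitol, 0.06039% in glucose, 0.007411% in the wild type, 0.009271% in overexpressor 1 and 0.009899% in overexpressor 2. Without the listed ribosomal RNAs (ATMG00020, ATMG01380 and ATMG01390) it was 0.006789% in mannitol, 0.03602% in glucose and 0.01046% in fructose. In leaves it was then 0.001614% in the wild type, 0.002671% in overexpressor 1 and 0.002815% in overexpressor 2.

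Equal replicate numbers did not pair the libraries: 18 correlations of their deviations from the group means ran from -0.457 to 0.184. With a replicate block the calls were 16 in fructose against mannitol, 64 in glucose against mannitol, 62 in fructose against glucose, 0 in overexpressor 1, 2 in overexpressor 2 and 0 between the lines. In leaves the members held 1022 to 2009 counts in all per library, which limits the precision of single genes there.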
